A study of Homo sapiens with 79 samples.

Results

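NEUROG2, NEUROD4, NHLH1, INSM1 and OLIG2 are transcription factors of the step in which a dividing retinal progenitor becomes a neuron. They were looked up by symbol, and all 5 were found among the 24414 gene rows of the count table. Retinal organoids, retina-like tissue grown in culture, were made from a human embryonic stem cell line (H9) that carries a GFP reporter at CRX. All groups had the same line and the same medium, with T3, Taurine and Retinoic Acid, and differed in age: day 60, day 90 and day 200 of differentiation. Dissociated cells were loaded onto Fluidigm C1 chips, and full-length cDNA made with SMART-Seq v4 was sequenced cell by cell. The chips also differed in handling. By the paper, day 90 was run first, with more added control RNA (spike-in) than the later chips and a looser spike-in limit for cells. Day 60 had a lower read minimum per cell. Age cannot be told apart from these differences between chips.

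The table held 578 cells of day 60 on 1 chip, 661 cells of day 90 on 1 chip, and 356 and 381 cells of day 200 on 2 chips, called a and b. The median cell had between 160343 and 251929 reads on the 4 chips, and 6 cells of day 90 had fewer than 50000. Each chip is divided into 19 or 20 columns, each with its own library, and cells of a chip were loaded together. Cells and columns are therefore not independent samples. Day 60 and day 90 have no repeat, so no test between days was made, and intervals below cover counting error only. Reads were counted without molecular identifiers, so reads of a gene in 1 cell are not independent molecules. The 2 chips of day 200 give the only repeat. The same 40 row barcodes are used in each column, and 38 of them occurred on all 4 chips. No cell had the same counts as another.

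In the retina, progenitors that leave the cell cycle pass through a short state in which basic helix-loop-helix (bHLH) proneural factors are made. These proteins pair with a broadly made partner and bind a short DNA motif, the E-box, and Notch signaling holds them back in neighboring cells. NEUROG2 is a neurogenin, made in progenitors about to form neurons. NEUROD4 is a related bHLH factor of later precursors, known in photoreceptor, bipolar and amacrine development. NHLH1 is a bHLH factor of newly made neurons. INSM1 is a zinc finger protein of new neurons and endocrine cells. OLIG2 is a bHLH factor best known from motor neurons and oligodendrocytes, also made by a subset of retinal progenitors.

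NEUROG2 lies on chromosome 4 (GRCh38, 112513516 to 112516180, minus strand), where it overlaps the antisense gene NEUROG2-AS1. NEUROD4 lies on chromosome 12 (55019974 to 55030017, plus strand) and NHLH1 on chromosome 1 (160367071 to 160372846, plus strand). INSM1 is a gene of 1 exon on chromosome 20 (20368104 to 20370949, plus strand). OLIG2 lies on chromosome 21 (33025935 to 33029196, plus strand) and overlaps an antisense gene too. No strand setting is given for the counting, so reads of NEUROG2 and OLIG2 cannot be told apart from reads of those antisense genes.

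The promoters of NEUROD4 and NHLH1 are shown because these 2 members went opposite ways between day 60 and day 90. Both are the 250 bases before the start of the gene in RefSeq (GRCh38.p14), read 5′ to 3′ on the strand of the gene, with E-boxes (CANNTG, which reads CANNTG on the other strand as well) in capitals. NEUROD4 is chr12:55019724-55019973, plus strand, and NHLH1 is chr1:160366821-160367070, plus strand.
NEUROD4: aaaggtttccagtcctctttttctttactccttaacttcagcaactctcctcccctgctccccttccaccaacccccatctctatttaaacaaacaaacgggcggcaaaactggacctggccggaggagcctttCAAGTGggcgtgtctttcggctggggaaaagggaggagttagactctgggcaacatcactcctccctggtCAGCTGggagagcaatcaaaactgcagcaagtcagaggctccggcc
NHLH1: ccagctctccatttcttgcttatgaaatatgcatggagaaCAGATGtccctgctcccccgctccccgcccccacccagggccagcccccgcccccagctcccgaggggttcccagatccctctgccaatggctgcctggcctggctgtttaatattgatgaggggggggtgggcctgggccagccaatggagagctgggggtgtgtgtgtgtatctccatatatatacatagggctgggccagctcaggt
NEUROD4 holds 2 E-boxes, which begin 116 and 46 bases before the start, and NHLH1 holds 1, which begins 210 bases before it. The same window of NEUROG2 (chr4:112516181-112516430, minus strand) holds none, and INSM1 and OLIG2 were not matched. An E-box of these letters was found in 61.8% of the 35116 windows of this length. The form CAGCTG was in 14.0% of them, and CAGATG or its other strand in 12.2%.

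NEUROD4 was the member with the largest difference between days. Its summed level was 30.4 CPM (reads per 1000000 reads of all genes) at day 60 and 131 CPM at day 90, and 100.3 and 96.7 CPM on the chips of day 200. Across columns it ran from 1.64 to 113 CPM at day 60 with a median of 22.2, and from 29.6 to 286.5 CPM at day 90 with a median of 114. The medians on the day 200 chips were 79 and 110.1 CPM. Column ranges overlapped between days, while the totals of the 3 later chips all stood above day 60.

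On the scale of CPM with 1 added, NEUROD4 was 4.22-fold higher at day 90, and 3.23-fold and 3.11-fold higher on chips a and b, than at day 60. A gene was called when it differed by at least 2-fold on this scale, and by as much on both chips for day 200. NEUROD4 was called higher both times, as were 11.5% of 13031 genes at day 90 and 8.07% of 13809 genes at day 200. The median gene moved by 0.01 to 0.07 on the log2 scale. NEUROD4 was read in 69 of 578 cells (11.9%) at day 60 and in 280 of 661 (42.4%) at day 90, a difference of 30.4 percentage points (interval 25.7 to 34.9). At day 200 it was read in 99 of 356 (27.8%) and 107 of 381 cells (28.1%), and the chips differed by 0.275 points (interval -6.21 to 6.72). With each cell brought to 50000 reads by formula, the shares were 9.98%, 33.5%, 21.0% and 21.6%, in the same order. With at least 5 reads asked for, they were 8.65%, 25.3%, 19.1% and 19.4%, so the gap between day 60 and day 90 was smaller. Of the cells with a read, 27.5% had fewer than 5 at day 60 and 40.4% at day 90. Among cells with a read, the median level was 151.5 CPM at day 60, 73.6 CPM at day 90, and 155.7 and 188.7 CPM on chips a and b.

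NHLH1 went the other way. Its level was 52.6 CPM at day 60 and 21.5 CPM at day 90. At day 200 chip a had 49.2 CPM of it and chip b 20.7. It was 2.38-fold lower at day 90 and was called lower, as were 8.34% of genes. At day 200 it was 2.47-fold lower than at day 60 on chip b and 1.07-fold lower on chip a, so it was not among the 4.4% of genes called lower on both. The share of cells with a read was 19.4% at day 60 and 12.1% at day 90, with 12.9% and 9.97% for chips a and b. The day 90 share was 7.27 points below day 60 (interval -11.4 to -3.22).

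The level of NHLH1 on chip a came from few cells. Of its 46 cells with a read, 16 had at least 5 reads, and 1 cell held 902 of 4751 reads (19.0%). The first 5 cells held 57%. By the rule of at least 5 reads, NHLH1 was in 14.4% of cells at day 60 and 8.17% at day 90, with 4.49% and 6.82% for chips a and b. On chip a, cells with 1 to 4 reads of NHLH1 were more frequent in chip columns that also held a cell with at least 100. They were 24 of 185 cells (13.0%) in such columns and 6 of 155 in the others. For NEUROD4 on the same chip they were 29 of 219 cells against 2 of 69, and at day 60 they were 10 of 138 against 9 of 390. On the other chips the interval of this difference held 0 for NHLH1. For INSM1 the interval held 0 on every chip. At day 60 they were 3 of 21 against 33 of 472 (interval -2.39 to 27.7 points), more frequent beside a high cell. At day 90 they were 23 of 170 against 53 of 384, on chip a 4 of 108 against 16 of 219, and on chip b 1 of 35 against 13 of 308. For OLIG2 on chip a they were 2 of 32 against 1 of 322 (interval 1.2 to 19.8 points). The part of reads from other cells of a column in the low counts was not tested, so values at 5 reads are given beside the co-detection below.

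INSM1 was read in 121 of 578 cells (20.9%) at day 60, and 183 of 661 (27.7%) at day 90. At day 200 chip a had 49 such cells of 356 (13.8%) and chip b had 52 of 381 (13.65%). The day 90 share stood 6.75 points above day 60 (interval 1.96 to 11.5), and 1.48 points above it when 5 reads were asked for. The pooled day 200 share stood 7.23 points below (interval -11.4 to -3.12), on both chips by nearly the same amount. In level INSM1 was 24.4 CPM at day 60, was 39 CPM at day 90, and stood at 24.1 and 17.0 CPM on the later chips. None of these differences reached 2-fold. It was read in every column of day 60, day 90 and chip b, and in 18 of 20 columns of chip a.

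NEUROG2 was rare. It was read in 43 cells (7.44%) at day 60, and 22 (3.33%) at day 90. Chip a had 6 such cells (1.69%) and chip b had 18 (4.72%). The share at day 90 was 4.11 points below day 60 (interval -6.79 to -1.61). Its level was 4.63, 3.00, 2.10 and 9.62 CPM, so it was under 5 CPM, the least level for a comparison, on all chips but b. It was 3.43-fold higher on chip b than on chip a, where 9.75% of 13269 genes were called higher and 6.9% lower. NHLH1 was among those lower. On chip b 1 cell held 195 of the 858 reads of NEUROG2, and 4 of 20 columns of chip a had any read of it.

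OLIG2 was the rarest, with reads in 14 of 578 cells (2.42%) at day 60, and 24 of 661 (3.63%) at day 90. Chip a had 5 of 356 (1.40%) and chip b had 0 of 381. A count of 0 allows a share of up to 0.787% by the limit of 3 counts, and the exact 95% interval reaches 0.9635%. Its level was 2.81, 3.52 and 3.08 CPM on the first 3 of these chips, below the level for a comparison. On chip a 1 cell held 58.4% of its reads, and 5 cells held all of them. OLIG1, its neighbor and close relative, went from 3.40 CPM at day 60 to 0.484 CPM at day 90 and was listed at 0 on both day 200 chips.

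**Figure D1:**
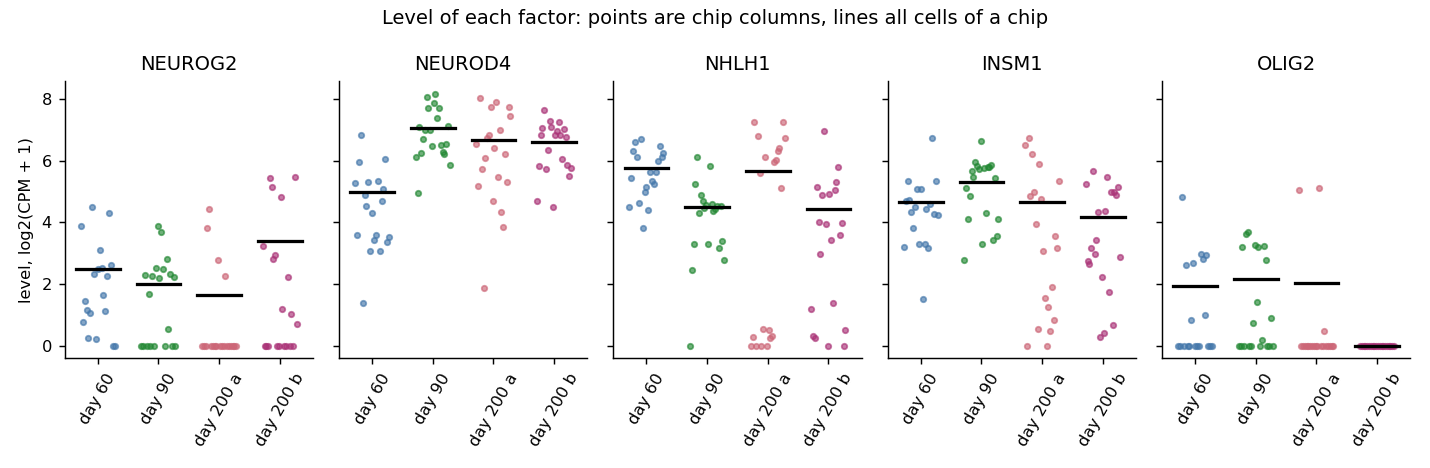
Level of each factor as log2(CPM + 1) on the 4 chips; points are the 19 or 20 columns of a chip, set side by side in column order, and lines are the level over all cells of the chip. NEUROD4 stands higher on the 3 later chips than at day 60, while the NHLH1 columns of day 200 chip a fall into high columns and columns near 0.

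**Figure D2:**
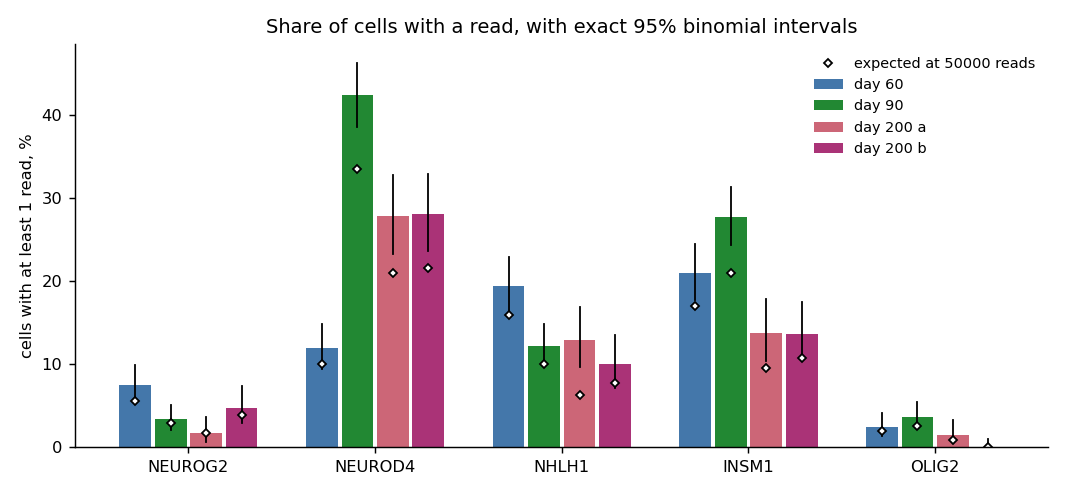
Percent of cells with at least 1 read of each factor on the 4 chips, with exact 95% binomial intervals as lines and the share expected at 50000 reads per cell as diamonds. NEUROD4 is in 42.4% of cells at day 90 against 11.9% at day 60, and OLIG2 is in 0 of 381 cells on chip b. With at least 5 reads, not drawn here, NEUROD4 is in 25.3% against 8.65%.

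Levels of different genes can be compared only per length, so CPM was divided by the exon length in kb. At day 60 NHLH1 stood first at 20.6 CPM per kb, ahead of INSM1 at 8.56 and NEUROD4 at 7.74, with NEUROG2 at 2.02 and OLIG2 at 0.862. At day 90 NEUROD4 stood first at 33.5 CPM per kb, followed by INSM1 at 13.7, NHLH1 at 8.42, NEUROG2 at 1.31 and OLIG2 at 1.08. NEUROD4 was also first on chip a (25.55 CPM per kb) and chip b (24.6), and NHLH1 was second on both (19.2 and 8.09). On chip a NEUROG2 (0.915 CPM per kb, interval 0.794 to 1.05) and OLIG2 (0.945, interval 0.841 to 1.06) could not be put in order. For the other neighbors the counting intervals were apart, except NEUROG2 and OLIG2 at day 90, which met between 1.17 and 1.19. The column ranges of NHLH1, INSM1 and NEUROD4 overlapped on every chip.

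Of 10 other neural bHLH factors in the table, 6 had enough reads for the comparison with day 60. At day 90, 3 of the 6 were at least 2-fold lower and none was higher. ATOH7, needed for ganglion cells, went from 27.2 CPM at day 60 to 6.22 CPM at day 90, and chips a and b had 1.11 and 0 CPM. NEUROD1, known in photoreceptors, was at 191, 182, 219.6 and 167 CPM. NEUROG1 was at 12.5 CPM at day 60 and 23.6 CPM at day 90. Over all genes 11.5% were higher and 8.34% lower at day 90, and 8.07% and 4.4% on both day 200 chips. Many genes of cell division were lower than at day 60. All 14 measured genes of the G2 and M phase list were at least 2-fold lower at day 90, and 13 of the 14 on both day 200 chips. Of 13 measured S phase genes, 8 were lower at day 90 and 7 on both day 200 chips. Lists of cell types moved with day too. At day 90, 11 of 12 photoreceptor genes, 8 of 9 bipolar genes and all 9 pigment epithelium genes were at least 2-fold higher than at day 60, and 9 of 12 ganglion cell genes were lower. On both day 200 chips 9 of 11 photoreceptor, 6 of 10 bipolar and 4 of 8 pigment epithelium genes were higher, and 8 of 12 ganglion cell genes lower. The part of these changes in the makeup of the organoids in the levels of the members was not tested, and more cells of a type and more RNA per cell cannot be told apart in summed counts.

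Some cells had reads of more than 1 factor. At day 60, 227 of 578 cells (39.3%) had at least 1 of the 5, and 86 (14.9%) had at least 2. At day 90 these were 379 (57.3%) and 156 (23.6%) of 661. On chip a 36 of 356 cells (10.1%) had at least 2, and on chip b 47 of 381 (12.3%). No cell had all 5, and 8 cells of day 60, 8 of day 90 and 2 of chip b had 4. With 5 reads asked of each factor, 10.2% of cells had at least 2 at day 60 and 11.5% at day 90. Chips a and b then had 3.93% and 8.66%. No share expected from the single factors was computed, so these counts alone do not show that the factors go together.

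INSM1 was more frequent in cells with NHLH1 than in the other cells on 3 of the 4 chips. At day 60 INSM1 was in 55 of 112 cells with NHLH1 (49.1%) and in 14.2% of the other cells, 34.9 points apart (interval 25.2 to 44.5). At day 90 it was in 52 of 80 cells with NHLH1 (65%) and in 22.55% of the rest, 42.45 points apart (interval 31 to 52.5). On chip b it was in 16 of 38 (42.1%) and 10.5%. On chip a it was in 6 of 46 (13.0%) and 13.9%, a difference of -0.828 points (interval -8.98 to 12.25). With 5 reads asked of both genes the shares were 42.2% against 10.1% at day 60, 55.6% against 12.7% at day 90, 30.8% against 8.45% on chip b, and 6.25% against 8.24% on chip a, where 1 of 16 cells had both. The difference between the day 200 chips was not tested.

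NEUROD4 cells held INSM1 more often as well. At day 60 INSM1 was in 38 of 69 cells with NEUROD4 (55.1%) and in 16.3% of the rest. At day 90 it was in 114 of 280 (40.7%) and 18.1%, and the difference of 22.6 points had an interval of 15.6 to 29.4. On chip b the shares were 26.2% and 8.76%. On chip a they were 18.2% and 12.1%, with an interval of the difference from -1.70 to 15.5 points. NHLH1 was in 42% of NEUROD4 cells at day 60 and 16.3% of the rest, in 18.2% and 7.61% at day 90, in 23.4% and 4.75% on chip b, and in 14.1% and 12.45% for chip a. With 5 reads asked of both genes, INSM1 was in 54% of NEUROD4 cells and 11.0% of the rest at day 60, in 34.1% and 10.1% at day 90, in 23% and 6.84% on chip b, and in 11.8% and 7.29% for chip a. For NHLH1 these were 38% and 12.1%, 15.6% and 5.67%, 16.2% and 4.56%, and 7.35% and 3.82%. On chip a the interval of the difference held 0 for both genes, at 1 read and at 5.

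INSM1 was read in 17 of 43 cells with NEUROG2 at day 60 (39.5%, against 19.4% of the rest) and in 7 of 18 on chip b (38.9% against 12.4%). At day 90 it was in 10 of 22 (45.45% against 27.1%, interval of the difference -0.495 to 38.5 points) and on chip a in 1 of 6. With 5 reads asked of both genes it was in 9 of 26 at day 60 (34.6% against 13.8%), 4 of 15 at day 90 (26.7% against 15.9%, interval -5.33 to 36.1) and 5 of 14 on chip b. The interval cleared 0 at day 60 and on chip b by both rules, and at day 90 and on chip a by neither.

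NEUROD4 in NEUROG2 cells depended on the rule and the chip. At 1 read it was in 9 of 43 cells with NEUROG2 at day 60 (20.9% against 11.2%, interval of the difference -0.241 to 24.2 points), and at 5 reads in 7 of 26 (26.9% against 7.79%, interval 5.67 to 38.4). At day 90 it was in 10 of 22 (45.45% against 42.25%, interval -15.7 to 23.4) and at 5 reads in 2 of 15 (13.3% against 25.5%). On chip a it was in 1 of 6 and on chip b in 3 of 18 (16.7% against 28.65%), and these intervals held 0. Of the 14 OLIG2 cells of day 60, 11 had NHLH1 (78.6% against 17.9%) and 8 had INSM1, while 1 had NEUROG2. At 5 reads 6 of 10 OLIG2 cells had NHLH1 (60% against 13.6%) and 6 had INSM1 (60% against 13.9%).

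Over all cells of a chip, Pearson's r of log2(CPM + 1) between NHLH1 and INSM1 was 0.37 at day 60 and 0.36 at day 90, with 0.02 and 0.31 for chips a and b. Between NEUROD4 and INSM1 it was 0.37, 0.33, 0.07 and 0.27. These are descriptions over 356 to 661 cells that share libraries and depth, and the cells are no independent replicates. Chip a had the lowest value of both pairs.

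**Figure D3:**
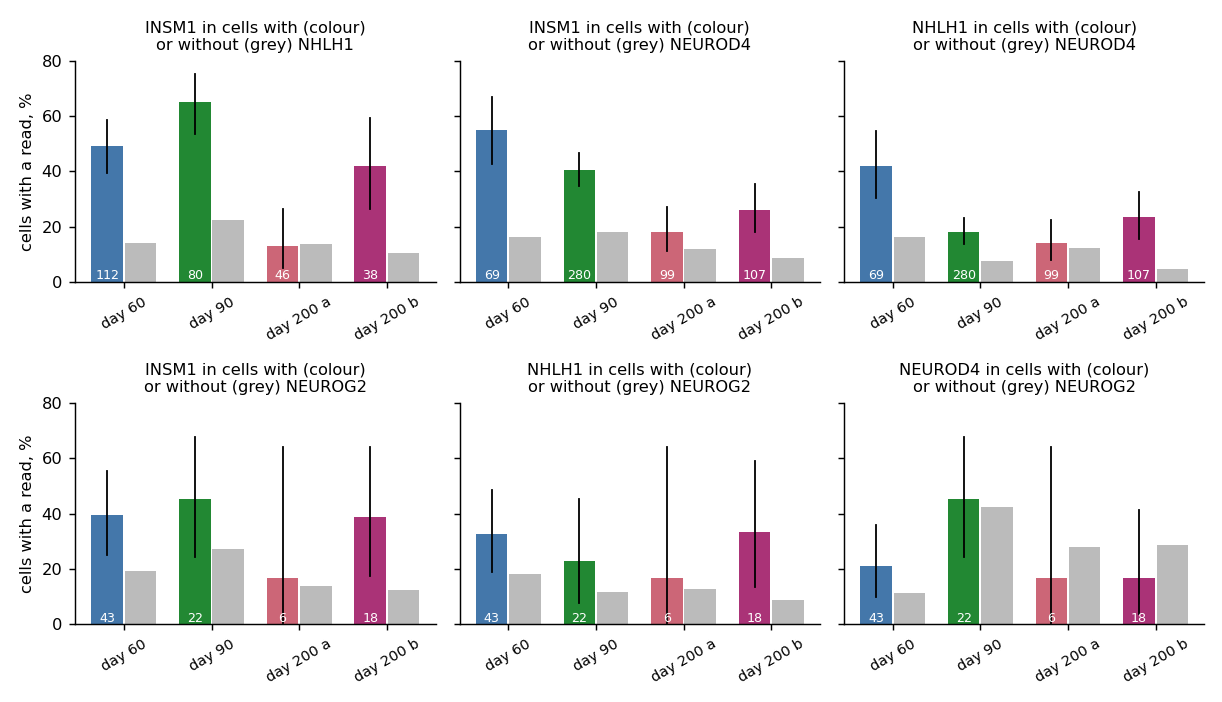
Percent of cells with a read of a second factor among cells with a first factor (color, with exact 95% binomial interval and the number of cells at the foot) and among cells without it (grey), by chip. INSM1 is in 49.1% and 65% of NHLH1 cells at days 60 and 90, and in 13.0% of them on day 200 chip a, beside 13.9% of the other cells.

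Co-detection with genes of the cell cycle was described with lists of 15 S phase genes and 15 genes of G2 and M phase, and a cell was list-positive with reads of at least 5 of the 15. At day 60, 27.9% of cells with NEUROG2 were positive for the G2 and M phase list and 27.85% of cells without it. The shares were 33.3% and 27.1% for NEUROD4, 22.3% and 29.2% for NHLH1, 31.4% and 26.9% for INSM1, and 1 of 14 cells against 28.4% for OLIG2. All 5 intervals of the difference held 0 by this rule. With reads of at least 3 of the 15 genes the interval cleared 0 for NEUROD4 (60.9% against 46.95%, interval 1.35 to 25.4 points) and for OLIG2 (21.4% against 49.3%, interval -42.3 to -1.38). For INSM1 it did so among the 85 cells with at least 5 INSM1 reads, with at least 3 genes (60% against 46.65%) and with at least 8 (23.5% against 13.8%, interval 1.30 to 20.15). With at least 5 genes the widest difference, for OLIG2, ran from -28.25 to 3.36 points. In numbers of cells, 38 of the 121 INSM1 cells and 25 of the 112 NHLH1 cells were positive, near the share of all cells (27.85%). For all 5 factors the median cell with a read of the factor was deeper at day 60 than the median cell without. It had 196892 reads against 161676 for NEUROD4, 182158 against 160551 for INSM1 and 178005 against 163548.5 for OLIG2. A deeper cell can more easily have reads of several list genes, and the part of depth was not tested.

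For the S phase list at day 60 the shares with and without the factor were 20.9% and 25.05% for NEUROG2, 18.8% and 25.5% for NEUROD4, 18.75% and 26.2% for NHLH1, and 27.3% and 24.1% for INSM1. These intervals held 0 as well. At day 90 fewer cells were positive for either list. There the difference cleared 0 for OLIG2 alone: 6 of 24 OLIG2 cells were positive for the G2 and M phase list (25.0% against 7.22%, interval of the difference 4.58 to 37.8 points) and 5 of 24 for the S phase list (20.8% against 5.495%, interval 3.57 to 35). Among the 11 cells with at least 5 OLIG2 reads, 2 and 1 were positive, and neither interval cleared 0. The median day 90 cell with an OLIG2 read had 189753 reads, against 160247 in cells without. The part of depth in the OLIG2 difference was not tested.

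**Figure D4:**
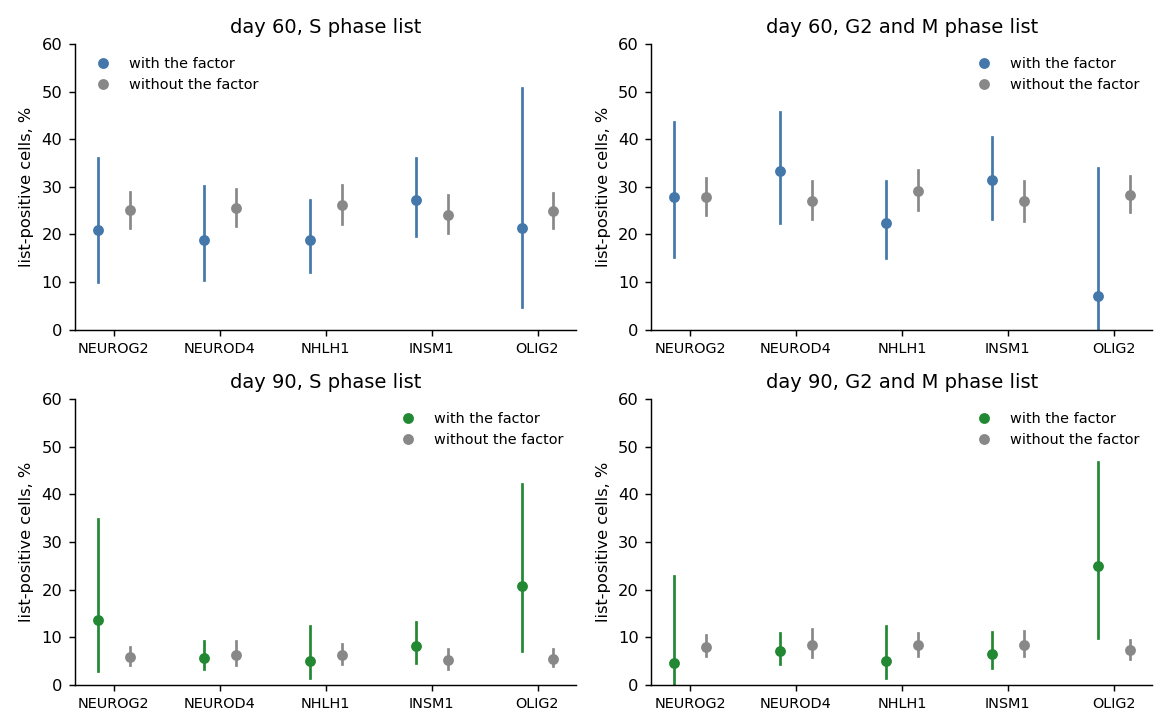
Percent of list-positive cells (reads of at least 5 of 15 genes) among cells with each factor (color) and without it (grey), with exact 95% binomial intervals, for the S phase and the G2 and M phase lists at days 60 and 90. The widest gaps are those of OLIG2 on the G2 and M phase list. They are 1 of 14 cells against 28.4% at day 60, and 6 of 24 cells (25.0%) against 7.22% at day 90. Among the day 90 points this last OLIG2 share stands highest.

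Summed levels told the members apart more than these shares did. At day 60, 11 of 14 G2 and M phase genes were at least 2-fold higher in cells with NEUROG2 than without (median log2 ratio 1.18), beside 10.6% of all genes higher and 14.1% lower. BUB1, a checkpoint kinase, was at 99.7 CPM against 28.9, UBE2C, which helps degrade cyclins, at 456.6 against 141.5, and AURKB, a mitotic kinase, at 101.5 against 31. In NHLH1 cells 10 of 14 were lower (7.93% of all genes were higher and 8.85% lower). CCNB1, the mitotic cyclin, was at 29.75 CPM against 120.9, UBE2C at 51.4 against 193.4 and TPX2, a spindle protein, at 103.2 against 331.1. In the 14 OLIG2 cells all 14 were lower, beside 14.1% of all genes higher and 32.4% lower, and CCNB1 was listed at 0 CPM against 104.5. In cells with NEUROD4 or INSM1, 2 genes of the list were lower and none was higher.

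At day 90 the 22 NEUROG2 cells had 13 of 13 genes of the list at least 2-fold lower, with 16.1% of all genes higher and 30.1% lower. MKI67, a marker of dividing cells, was at 0.302 CPM against 84.3, and TOP2A at 2.11 against 164.8. On day 200 chip b the 18 NEUROG2 cells had 9 of 11 genes higher, beside 15.4% of all genes higher and 33.0% lower. MKI67 was there at 362.8 CPM against 11.5, but 1 of the 18 cells was list-positive. NHLH1 cells of day 90 had 11 of 13 genes lower (9.55% of all genes higher and 13.4% lower), with BIRC5 at 0.614 CPM against 34.8. With 43, 22 and 18 cells, the sums of NEUROG2 cells rest on few cells.

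Most photoreceptor genes were higher in cells with NEUROD4 on 3 of the 4 chips. At day 60 all 10 measured photoreceptor genes were at least 2-fold higher, while 9.29% of all genes were higher and 12.2% lower. RCVRN, a calcium sensor, was at 278.6 CPM against 18.85, PDE6H, a cone phosphodiesterase subunit, at 79.6 against 6.18, and RXRG, a nuclear receptor of cones, at 36.2 against 2.90. At day 90, 10 of 12 were higher (6.44% of all genes higher, 6.81% lower), with PRDM1, which favors photoreceptor over bipolar fate, at 57 CPM against 13.5 and ISL2 at 17.8 against 4.77. On chip a 4 of 11 were higher, among 14.0% of all genes higher and 17.7% lower, and on chip b 10 of 12, among 10.3% and 12.5%. CRX, the gene of the reporter, was at 14.7 CPM against 1.53 on chip a and at 17.7 against 0.834 on chip b.

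Bipolar cell genes were higher in NEUROD4 cells too, in 6 of 9 genes at day 90 and on chip b and in 7 of 11 on chip a. VSX1, a bipolar factor, was at 212.4 CPM against 37.3 at day 90 and 95 against 5.90 on chip b. GRM6, the glutamate receptor of ON bipolar cells, was at 22.55 CPM against 3.25 at day 90 and 128.3 against 3.34 on chip a. Of the other bHLH factors, NEUROD1 was at least 2-fold higher in NEUROD4 cells on 3 of the 4 chips, with 776.2 CPM against 100.9 at day 60 and 331.8 against 104.7 on chip b. On chip a it was at 343.2 CPM against 171.1, at the limit of the call and not past it.

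INSM1 cells at day 60 had 9 of 9 photoreceptor genes at least 2-fold higher, beside 7.3% of all genes higher and 8.3% lower. CRX was at 19.6 CPM against 0.334 and OTX2, which directs photoreceptor and bipolar fate, at 301.2 against 40.6. At day 90 it was 2 of 12, with 6.93% of all genes higher and 7.84% lower, and CRX was at 20.4 CPM against 6.74. NEUROD1 was at 606.9 CPM against 67.7 at day 60 and 299.7 against 133.4 at day 90. NEUROG1, a close relative of NEUROG2, was at 40.8 against 4.12 and at 41 against 16.3.

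NHLH1 cells at day 60 had 8 of 9 photoreceptor genes higher, beside 7.93% of all genes, and their other bHLH genes stood out by ATOH7 (90.35 CPM against 10.6) and NEUROG1 (49.1 against 2.88). Of genes of new neurons, ST18 was at 112.1 CPM against 24.1 and ELAVL2, an RNA-binding protein of neurons, at 187.3 against 62.2. At day 90 NEUROG1 was at 76.5 CPM against 15.9 and ST18 at 73.75 against 14.3 in these cells. On chip a, where INSM1 was no more frequent in cells with NHLH1 than in the rest, ST18 was at 2.36 CPM in cells with NHLH1 against 48.2 in the rest, while DCX, a microtubule protein of young neurons, was at 201.9 against 96.85.

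NEUROG2 cells differed from the rest in other genes. At day 60, 3 of 10 photoreceptor genes were higher, beside 10.6% of all genes, and JAG1, a Notch ligand, was at 107.2 CPM against 20.75. At day 90, 7 of 12 photoreceptor genes were lower, beside 30.1% of all genes, with NRL, the rod factor, at 4.83 CPM against 75.7 and GNAT1, the rod transducin, at 3.32 against 83.5. In the 24 OLIG2 cells of day 90, 7 of 12 photoreceptor genes were lower and 7 of 8 horizontal and amacrine genes higher, beside 15.7% of all genes higher and 22.3% lower. CALB1, a calcium-binding protein of horizontal and amacrine cells, was at 113.9 CPM against 13.2, GAD2, which makes the transmitter GABA, at 50.2 against 14.5, and DCX at 823.9 against 205.6. OLIG1 was at 7.81 CPM against 0.154. Of 9 genes listed for the oligodendrocyte lineage, 6 were in the table, and 1 of the 4 with enough reads was higher.

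Cells were clustered without the 5 members, and clusters were named from marker genes that did not include them. Of 12 clusters, 10 could be named, and the 2 others are called by leading genes: 1 led by VSX1, KLHL35 and LHX4 (222 cells) and 1 led by GDF15 and ANGPTL4 (308 cells). Of the 543 Muller glia-like cells, 112 lie in a cluster led by ABCB1 and IGFBP6. The genes that move with the members still took part in the clustering, so the values by class are a description. NEUROD4 was read in 133 of 232 cone-like cells (57.3%, interval 50.7 to 63.8), 126 of 222 cells of the VSX1 cluster (56.8%) and 29 of 60 rod-like cells (48.3%). In the other classes it was read in 12.9% to 26.5% of cells. Matrix-producing and pigment epithelium-like cells, in which none of these factors has a known role, had it in 12.9% and 26.5% of cells, with medians of 199165 and 188301 reads per cell against 211163.5 in the cone-like and 200259 in the rod-like cells. At 5 reads the shares were 7.06% and 13.3% there, and 49.1% in cone-like cells. NEUROD4 shares over all chips that are at or below these are not read here as expression. Where the low reads come from was not tested. These shares pool the chips, and 78 of the 98 pigment epithelium-like cells came from day 90. For NEUROG2 and OLIG2 the shares by class below are counts of cells with a read and are not read as expression.

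NHLH1 and INSM1 were highest in the VSX1 cluster, in 37.4% and 46.85% of its cells. They followed in cone-like cells with 25.9% and 33.6%, and in the matrix-producing and pigment epithelium-like cells they stood at 2.35% and 11.2% for NHLH1 and at 8.24% and 13.3% for INSM1. Rod-like cells had NEUROD4 but few had NHLH1 (4 of 60 cells, 6.67%). None of the rod-like cells came from day 60, where NHLH1 was most frequent over all cells. Class and day cannot be told apart in this contrast. Over all chips a NEUROG2 read was in 17 of 151 ganglion cell-like cells (11.3%) and 21 of 222 cells of the VSX1 cluster (9.46%). It was in 8 of 106 mitotic cells (7.55%) and 7 of 232 cone-like cells (3.02%). The chips differ in their makeup, and at day 60 alone the NEUROG2 shares stood in another order. They were 12.2% in ganglion cell-like, 15.15% in the VSX1 cluster, 10.6% in mitotic and 8.89% in cone-like cells. OLIG2 was read in under 5% of every class.

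Within the VSX1 cluster NEUROD4 and NHLH1 went opposite ways after day 60, while in cone-like cells the NEUROD4 shares did not follow the order seen over all cells. In the VSX1 cluster NEUROD4 was in 17 of 66 cells at day 60 (25.8%), 46 of 63 at day 90 (73%), 28 of 46 on chip a (60.9%) and 35 of 47 on chip b (74.5%). The rule above pools the chips and does not decide the day 60 share, which lies just below that of pigment epithelium-like cells. Of those 98 cells 78 came from day 90 and 4 from day 60. At day 60 NEUROD4 was in 11.9% of all cells. Whether its day 60 share in the VSX1 cluster is expression was not tested. In cone-like cells it was in 26 of 45 (57.8%), 65 of 99 (65.7%), 24 of 61 (39.3%) and 18 of 27 (66.7%). NHLH1 in the VSX1 cluster went from 42 of 66 cells at day 60 (63.6%) to 15 of 63 at day 90 (23.8%), 8 of 46 on chip a (17.4%) and 18 of 47 on chip b (38.3%). INSM1 in cone-like cells went from 28 of 45 (62.2%) and 42 of 99 (42.4%) to 7 of 61 on chip a (11.5%) and 1 of 27 on chip b (3.70%). In Muller glia-like cells NEUROD4 was in 10 of 154 cells at day 60 (6.49%) and 53 of 156 at day 90 (34.0%), at 6.35 and 31.3 CPM. At 5 reads these were 3.25% and 11.5%. Classes without a known role of the factor were at like shares at day 90. These were 28.2% of pigment epithelium-like cells (14.1% at 5 reads) and 6 of 32 matrix-producing cells (18.75%). NEUROD4 was in 0 of 16 matrix-producing cells at day 60. Over all cells TF, GPX3 and WIF1, which lead the main Muller glia-like cluster, were at 4.34, 21.3 and 1.15 CPM at day 60. At day 90 they were at 48.7, 51.25 and 44.2 CPM. SFRP2, also among its leading genes, went from 461.7 to 183.1 CPM. The rest of the marker genes behind this name were SPP1, VIM, DKK3, CLU, HES1 and IFITM3. They were at 223.8, 994.1, 333.1, 775.2, 1529.7 and 701.4 CPM at day 60. All of these levels are over all cells of a chip and not of this class. The paper reports progenitor genes in its own Muller glia cluster. Whether this class is glia at day 60 was not tested. The day contrast is not read as a change within glia.

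**Figure D5:**
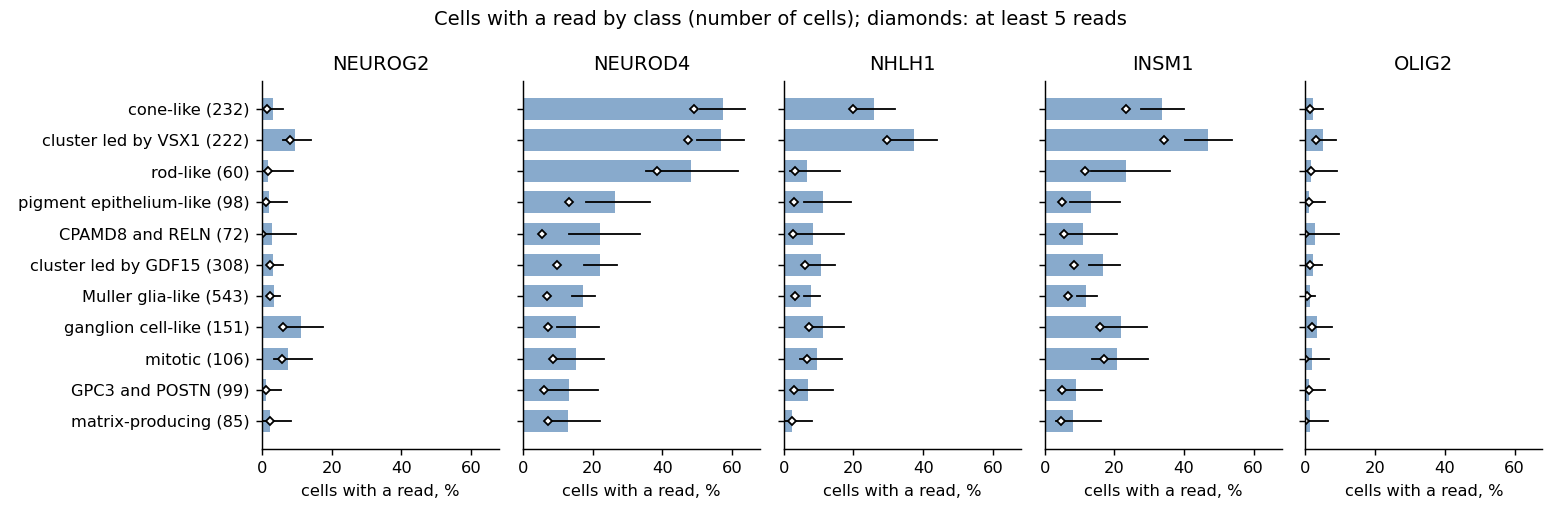
Percent of cells with at least 1 read of each factor by cell class (bars, with exact 95% binomial intervals) and with at least 5 reads (diamonds), over all chips, with the number of cells of each class in brackets. Pooled over chips, NEUROD4 is in 57.3% of cone-like cells, 56.8% of the VSX1 cluster and 48.3% of rod-like cells, but within each of the 3 later chips the VSX1 cluster is above the cone-like cells.

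The genes whose levels were most like NEUROD4 were OTX2 (mean r over the 4 chips 0.45), NEUROD1 (0.37), LHX4 (0.36), SLC1A7 (0.36) and PCBP4 (0.35), over all cells and 10085 genes. For OTX2 the values were 0.49, 0.45, 0.31 and 0.55 from day 60 to chip b. For OLIG2 CEND1 reached 0.32 at day 90, the only chip with enough OLIG2 cells. No gene reached a mean of 0.3 for NEUROG2, NHLH1 or INSM1. For NHLH1 and INSM1 the highest mean was that of each other, 0.26.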

How the data were processed

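Retinal organoid cells of day 60, day 90 and day 200 were captured on Fluidigm C1 chips. The deposited counts are whole numbers of reads per gene and cell, which the authors made with Trimmomatic 0.33, STAR 2.4.0 and HTSeq 0.6 on GRCh38.p7 (GENCODE 25) and filtered by cell with Scater. The table has 24415 rows with the spike-in row, which was left out, and 19 mitochondrial rows. Read and gene minimums stated for that filter were applied here to reads without the spike-in row. They leave 541, 372, 314 and 355 of the deposited 578, 661, 356 and 381 cells. Whether the authors counted spike-in reads toward the minimum is not stated. Groups came from sample titles. The 5 members and all gene lists were chosen with earlier results of these data known. Of 255 listed genes 12 had no row in the count table under the symbol listed. Every member is reported. Of each list at most 3 genes are named each way, and of genes like a member the first 5 with a mean r of at least 0.3. The other bHLH genes given by day were picked after their values were seen.

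Counts were summed per chip, column or set of cells and divided by summed reads (CPM), with exact Poisson intervals. Shares have exact Clopper-Pearson intervals and differences Newcombe intervals, all at 95%. Expected shares at 50000 reads used the hypergeometric formula, in cells at least that deep. Ratios used an offset of 1 CPM over genes with at least 5 CPM in a group. No test was made. Clusters came from Seurat 5.3.0 in R 4.3.3 (CCA, 20 dimensions, resolution 0.6, 2424 variable genes). A cluster needed 3 markers at least 2-fold higher, after an offset of 5 CPM, and read in 20% of its cells; the VSX1 cluster met this for the rod list, but its leading VSX1 and LHX4 are bipolar list genes. Scrublet (scanpy 1.11.5) marked doublets (28 cells, 24 of them on chip a) and kept. Gene positions come from GENCODE 44 on GRCh38. Other tools were Python 3.11.15, scipy 1.17.1 and matplotlib 3.10.9. The ratio rule was tested on simulated data. Alternatives changed the detection rule, depth, offset, cells, clusters and measure of likeness.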

Additional observations from a re-analysis of the deposited data

Results flagged for a closer look

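In cells with NEUROG2 against cells without it, the median log2 ratio of the G2 and M phase list was 1.18 at day 60 and -3.83 at day 90. The photoreceptor list went the same way, with a median of 0.64 at day 60 and -1.26 at day 90. Both were picked out because the 2 days lie on opposite sides of 0. Each day is 1 chip, with 43 and 22 cells with NEUROG2, and the difference between the days was not tested.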

How the results depend on the processing

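Of 281 values recomputed for 58 results, 256 stayed within the counting interval or, for levels, within the spread of the 2 day 200 chips, and none changed sign against a difference whose interval cleared 0 or against a 2-fold call. The causes of the others were not tested. The NEUROD4 share stood above day 60 by 16.6 points at day 90 and 10.6 at day 200 with 5 reads, 23.55 and 11.3 at 50000 reads, and 19.6 and 10.5 at 25000 reads; the INSM1 share at day 90 stood 1.48 points above day 60 with 5 reads. The spread of NEUROD4 between the chips was only 0.04, so its log2 ratio left it at day 90 with the mean of the cells' CPM (2.24), an offset of 10 CPM (1.81) and cells of at least 150000 reads and at most 10% mitochondrial reads (1.77), at day 200 with the same (1.95, 1.43 and 1.39), and in a comparison chosen after seeing the data, without the cell with most reads on each chip (2.16 and 1.71). For cell cycle lists, moved differences were those of NEUROG2 at day 90 (S phase -2.19 with 8 of 15 genes; G2 and M phase -8.05 with 5 reads, -8.96 in deeper cells, -10.6 with 3 of 15 genes), NEUROD4 at day 60 (S phase -15.7 in deeper cells), NHLH1 at day 60 (G2 and M phase 2.82 with 3 of 15 genes) and OLIG2 (S phase -25.7 at day 60 with 3 of 15 genes and 3.09 at day 90 with 5 reads; G2 and M phase 4.25 at day 90 with 8 of 15 genes). By Spearman's rho 3 of the 5 genes named for NEUROD4 were among its first 5. With 10 dimensions no cluster led by VSX1 was found. Depth limits what can be said of NEUROG2 and OLIG2, which have few cells. No paired analysis was possible because no test was made and column numbers only mark a place on a chip.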
